A study of Homo sapiens with 12 samples.

Results

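The mitosis genes described here are 48 genes whose products carry cells through chromosome condensation, spindle assembly, chromosome segregation and cell division. They were chosen as a list of symbols, and each was read from its own probe set. All 48 were on the array, among 11963 genes that had a probe set annotated to a single symbol. Where a gene had several such probe sets, the one with the highest mean over the 12 arrays stood for it.

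At the entry into mitosis the kinase CDK1, bound to B-type cyclins, phosphorylates proteins that condense the chromosomes, take down the nuclear envelope and build the spindle. Kinetochores then attach chromosomes to microtubules, the spindle assembly checkpoint delays anaphase until all are attached, and the anaphase-promoting complex ends the block by marking securin and cyclin B for degradation. Many of these genes are transcribed late in the cell cycle, so in a bulk culture their summed transcript level is widely used as a readout of proliferation.

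The arrays came from HCC827, an established human lung adenocarcinoma cell line that carries an activating EGFR mutation, in 4 groups of 3 arrays. ERC4 cells, whose label calls them erlotinib resistant (erlotinib blocks the kinase activity of EGFR), were set against HCC827 parental cells, both grown in RPMI with 5% FBS and antibiotics. Esh9-1 cells are HCC827 cells with a lentivirus that carries an shRNA to EGFR, and were set against HCC827NT cells, whose lentivirus carries a non-target shRNA. Both transduced groups grew in the same medium with 5 ug/ml puromycin. All cells were harvested during exponential growth, and no drug other than puromycin and antibiotics is named. ERC4 is 1 line and Esh9-1 stands for 1 shRNA label, so neither a clone effect nor a second hairpin can be set beside them. A resistance label on all 12 arrays, the parental ones included, calls them resistant to EGFR inhibitors, and the groups were therefore taken from the titles. The labels do not tell whether the replicates are separate cultures, and the p-values then reflect the spread between arrays alone, which may be technical.

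Levels are log2 of the deposited RMA intensity plus 1, and a change is a difference of mean log2 levels with its standard error (SE) from limma. Calls were made where the Benjamini-Hochberg adjusted p, taken over all 11963 genes, was under 0.05. The median level over all probe sets was 5.67 to 5.75 on the ERC4 and parental arrays and 7.15 to 7.17 on the Esh9-1 and HCC827NT arrays, so levels were compared only within each set of 6. Hybridisation controls, which are added to each sample, averaged 9.16 in ERC4 and 10.75 in parental arrays, and 11.65 in Esh9-1 and 11.04 in HCC827NT arrays. The difference between 3' and 5' ACTB probe sets, a sign of RNA quality, was 0.19 in ERC4 and 0.22 in parental arrays, and 1.07 in Esh9-1 and 0.20 in HCC827NT arrays (means, n = 3 each). EGFR read 12.16, 12.27 and 12.32 in Esh9-1 cells, against 13.47, 13.66 and 13.51 in HCC827NT cells, a change of -1.30 ± 0.07 (limma adjusted p = 2e-09). In ERC4 cells EGFR read 12.56, 12.70 and 12.52, against 12.41, 12.34 and 12.40 in parental cells. The defining epithelial markers were measured in all groups, and 8 of 8 were lower both in ERC4 and in Esh9-1 cells. Their summed intensity was 8044 to 8453 in ERC4 and 19626 to 20012 in parental arrays, and 10723 to 11229 in Esh9-1 and 63644 to 65502 in HCC827NT arrays. Of 4 lung lineage markers, NKX2-1 was called higher (0.37), MUC1 (-2.78) and SFTPC (-0.25) lower and SFTPB not called in ERC4, and all 4 were called lower in Esh9-1, MUC1 by -3.28 and NKX2-1 by -1.06. Their summed intensity was 824 to 860 in ERC4 and 1397 to 1523 in parental arrays, and 989 to 1099 in Esh9-1 and 2210 to 2430 in HCC827NT arrays. Of 7 leukocyte markers 3 were called lower and 4 not called in ERC4, and 1 lower and 6 not called in Esh9-1. Summed leukocyte marker intensity was 176 to 184 in ERC4 and 205 to 206 in parental arrays, and 369 to 404 in Esh9-1 and 374 to 406 in HCC827NT arrays. Of 9 fibroblast and endothelial markers 1 was called higher and 3 lower in ERC4, and 1 higher and 1 lower in Esh9-1 (LUM at 2.56 and CDH5 at -0.34). Their summed intensity was 369 to 394 in ERC4 and 432 to 437 in parental arrays, and 970 to 1031 in Esh9-1 and 909 to 998 in HCC827NT arrays. The part of these differences in the results was not tested.

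Promoters of late cell cycle genes commonly hold a cell cycle genes homology region (CHR, here TTTGAA or the variant TTTAAA), bound by the MuvB complexes that repress these genes in resting cells and activate them before mitosis. A CCAAT box, bound by NF-Y, often lies upstream of it. RefSeq windows (GRCh38.p14) of 250 bases before to 50 bases after an annotated start were available for 41 members, and FOXM1, AURKA, BUB3, TTK, BIRC5, TPX2 and UBE2C are named without one. The 100 bases before the start of the first window are shown for the members the comparisons turn on, 5' to 3' on the gene's own strand, with matches to either CHR form, to CCAAT and to an E2F-type motif (GCGGGAA) on both strands in capitals. KIF23, KIF20A and KIF11 were among the 5 highest members in ERC4, CENPE and CENPF were the highest in Esh9-1, CCNB1, CCNB2 and PLK1 were called higher in both, AURKB was called in opposite directions, and TACC3 was called lower in both.
KIF23 (chr15:69414249-69414348, plus strand): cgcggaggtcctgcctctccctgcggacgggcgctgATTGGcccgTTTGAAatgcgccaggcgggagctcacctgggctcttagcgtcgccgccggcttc
KIF20A (chr5:138179012-138179111, plus strand): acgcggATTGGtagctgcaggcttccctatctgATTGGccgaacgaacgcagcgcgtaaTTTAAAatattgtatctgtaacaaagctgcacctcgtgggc
KIF11 (chr10:92593030-92593129, plus strand): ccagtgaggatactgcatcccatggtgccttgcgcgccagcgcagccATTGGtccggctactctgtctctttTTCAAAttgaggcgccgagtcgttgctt
CENPE (chr4:103198344-103198443, minus strand): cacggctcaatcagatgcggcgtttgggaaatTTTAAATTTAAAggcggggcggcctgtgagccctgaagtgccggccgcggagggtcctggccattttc
CENPF (chr1:214603095-214603194, plus strand): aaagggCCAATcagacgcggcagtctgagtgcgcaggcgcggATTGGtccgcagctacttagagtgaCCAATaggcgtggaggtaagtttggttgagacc
CCNB1 (chr5:69167050-69167149, plus strand): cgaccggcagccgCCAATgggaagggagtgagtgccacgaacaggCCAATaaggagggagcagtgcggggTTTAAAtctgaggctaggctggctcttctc
CCNB2 (chr15:59105046-59105145, plus strand): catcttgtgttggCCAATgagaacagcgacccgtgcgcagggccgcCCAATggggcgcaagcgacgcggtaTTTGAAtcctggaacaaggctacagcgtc
PLK1 (chr16:23678789-23678888, plus strand): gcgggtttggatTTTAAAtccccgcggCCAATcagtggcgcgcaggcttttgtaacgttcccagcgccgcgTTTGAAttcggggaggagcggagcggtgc
AURKB (chr17:8210226-8210325, minus strand): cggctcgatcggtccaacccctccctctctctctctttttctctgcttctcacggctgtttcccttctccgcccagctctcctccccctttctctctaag
TACC3 (chr4:1720531-1720630, plus strand): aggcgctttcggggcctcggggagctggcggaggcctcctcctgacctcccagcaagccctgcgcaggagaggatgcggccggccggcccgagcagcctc

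Mitosis genes were mostly higher in ERC4 than in HCC827 parental cells. Of the 48, 34 were called higher (70.8%), 1 lower and 13 not called, where 28.9% of all genes were called higher and 28.8% lower. The median member change was 0.53 on the log2 scale, beside -0.04 over all genes, and the mean level of the 48 was 8.65 to 8.70 on the ERC4 arrays, against 8.05 to 8.21 on the parental arrays. The highest were the cytokinesis kinesins KIF23 at 1.54 and KIF20A at 1.38, the checkpoint kinase TTK at 1.31, the spindle motor KIF11 at 1.30 and the condensin subunit SMC4 at 1.30, and 11 members rose at least 2-fold (background 4.51%). TACC3, which stabilises spindle microtubules, was the 1 member called lower, at -0.68. Bright genes as a class were more often higher in ERC4. Among the 3988 brightest genes, 52.8% were called higher and 16.8% lower with a median change of 0.21, and of the 42 members among them 29 were called higher (69.0%), 1 lower and 12 not called, with a median of 0.46. The 6 other members (CENPE, NDC80, KIF11, KIF14, KIF15 and KIF23) had 5 called higher and a median of 0.92. The 2 groups of arrays did not overlap for 39 of 48 members, 36 with ERC4 above and 3 with ERC4 below, where 60.5% of all genes did not overlap (29.8% above and 30.7% below). That is 81.2% of the members, beside 74.4% of the 3988 brightest genes. In bulk cultures, a larger share of cells in mitosis and more RNA of these genes per cell cannot be told apart.

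Quantile normalization within the 6 arrays left 29 members called higher and 5 lower, with a median of 0.31. Of all 11963 genes, 2911 were called higher and 3294 lower under that setting, with a median of -0.04. The calls of CCNB2, CKS1B, PLK1, ZWINT and NCAPG were lost there, while CDK1, CENPA, BIRC5 and NCAPH came out lower beside TACC3.

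In Esh9-1 cells mitosis genes were split. Of the 48, 24 were called higher (50% of members) and 10 lower (20.8%) than in HCC827NT cells, and 14 were not called, where 25.3% of all genes were called higher and 24.6% lower. The median member change was 0.24, beside -0.02 over all genes, and the mean level of the 48 was 10.19 to 10.21 on the Esh9-1 arrays, against 9.92 to 10.04 on the HCC827NT arrays. Of the members, 3 rose at least 2-fold (background 4.89%). These were the kinetochore genes CENPE at 1.58 and CENPF at 1.19 and the kinesin KIF14 at 1.03. The largest falls were those of the kinase AURKB at -0.84 and the kinetochore gene ZWINT at -0.52. Among the 3988 brightest genes, 34.8% were called higher and 32.7% lower with a median of 0.02, and of the 42 members there 20 were called higher and 10 lower with a median of 0.17. The groups did not overlap for 38 members, 25 with Esh9-1 above and 13 below (background 61.3%, of all genes 30.2% above and 31.2% below). That is 79.2% of the members, near the 80.2% of the brightest genes. Beside these counts, the 3' to 5' difference of GAPDH was 0.30 ± 0.08 in Esh9-1 and -0.05 ± 0.02 in HCC827NT arrays (SD, n = 3 each), in the same direction as that of ACTB, and its part in the members' values was not tested.

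**Figure D1:**
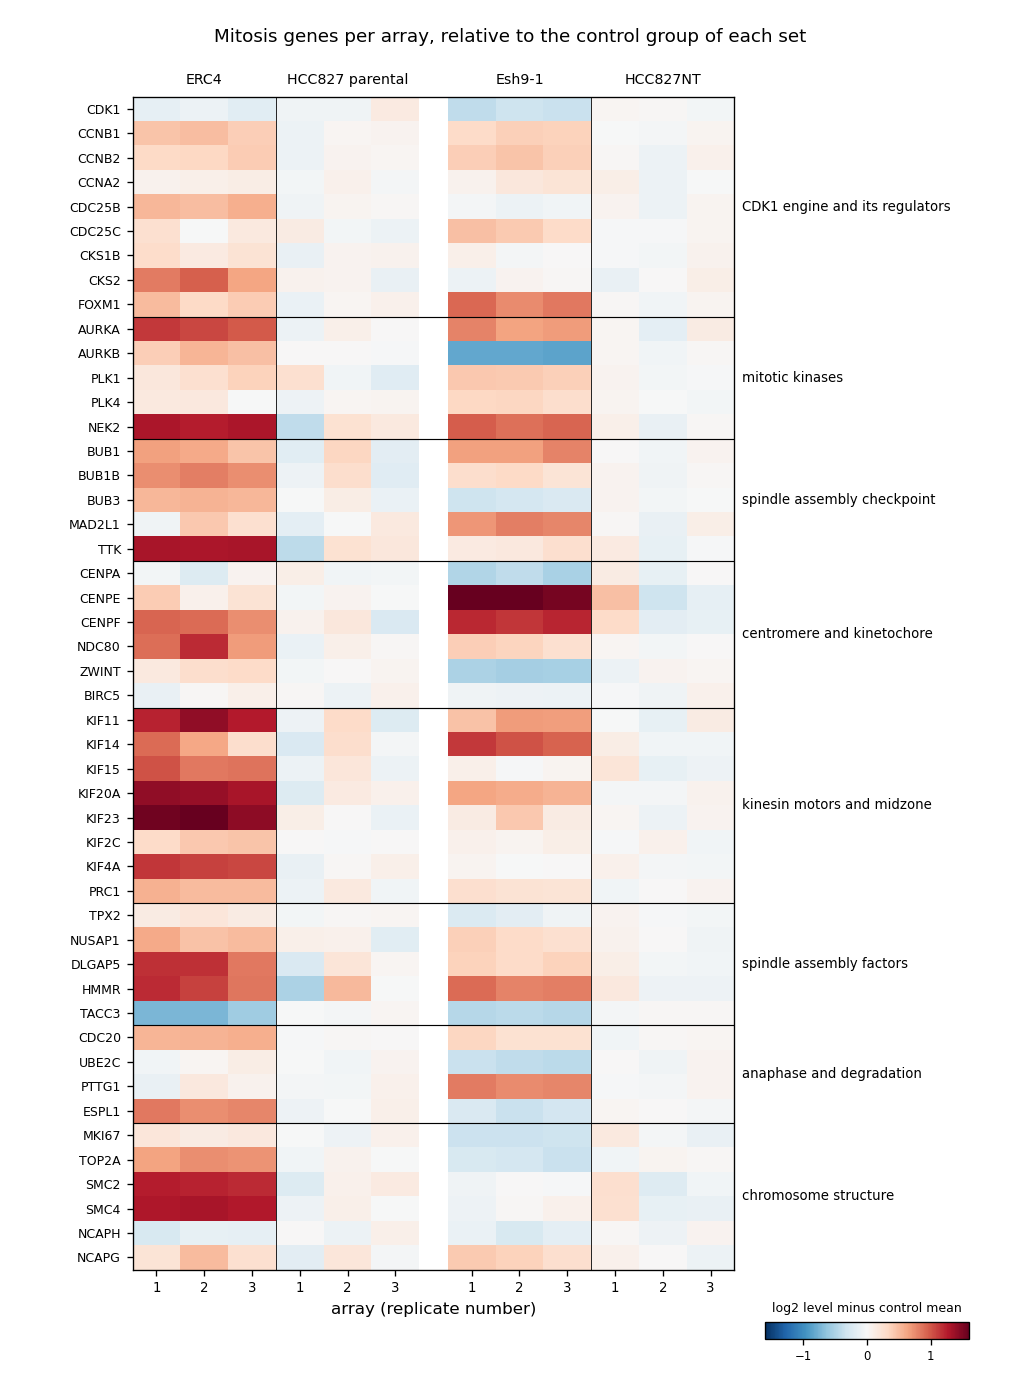
Log2 level of each of the 48 mitosis genes (rows, by role) on each of the 12 arrays (columns), minus the mean of the control group of the same set: HCC827 parental for the left 6 columns, HCC827NT for the right 6 (colour scale in log2 units). ERC4 columns are red in most rows and blue in TACC3, while Esh9-1 columns are darkest red in CENPE (1.58) and CENPF (1.19) and darkest blue in AURKB (-0.84).

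The CDK1 engine was the first role examined, with 9 members. In ERC4 cells 6 were called higher and 3 were not called, with a median of 0.35, and in Esh9-1 cells 4 were higher, 1 lower and 4 not called, with a median of 0.15. CDK1, the kinase itself, read 8.69, 8.74 and 8.64 in ERC4 cells, against 8.76, 8.76 and 8.97 in parental cells. It read 10.28, 10.35 and 10.33 in Esh9-1 cells, against 10.71, 10.69 and 10.64 in HCC827NT cells. All 3 arrays of both ERC4 and Esh9-1 lay below those of their controls, but the change of -0.14 ± 0.07 in ERC4 was not called (limma adjusted p = 0.11), while that of -0.36 ± 0.07 in Esh9-1 was (adjusted p = 0.00056). CCNB1, the cyclin that activates CDK1 at the entry into mitosis, read 9.75, 9.78 and 9.69 in ERC4 cells, against 9.20, 9.33 and 9.35 in parental cells. Esh9-1 cells had CCNB1 levels of 11.41, 11.48 and 11.46, against 11.09, 11.07 and 11.14 in HCC827NT cells. CCNB1 thus rose in both, by 0.45 ± 0.06 in ERC4 (adjusted p = 4e-05) and by 0.35 ± 0.06 in Esh9-1 (adjusted p = 0.00031), with no overlap of arrays. FOXM1, a transcription factor that activates genes of mitotic entry, read 9.22, 9.03 and 9.12 in ERC4 cells, against 8.60, 8.75 and 8.79 in parental cells. It read 10.54, 10.37 and 10.46 in Esh9-1 cells, against 9.63, 9.55 and 9.66 in HCC827NT cells. FOXM1 was the most raised of these 9 in Esh9-1, by 0.84 ± 0.08 (adjusted p = 3.2e-07), and rose by 0.41 ± 0.08 in ERC4 (adjusted p = 0.00038).

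CCNB2, the second B-type cyclin, rose by 0.35 ± 0.07 in ERC4 and 0.41 ± 0.07 in Esh9-1. CDC25B, a phosphatase that removes the inhibitory phosphates of CDK1, rose by 0.53 ± 0.07 in ERC4, and its value in Esh9-1 was -0.06 ± 0.07. On its brightest probe set the relative CDC25C had the reverse pattern of calls, with 0.13 ± 0.08 in ERC4, not called, and a rise of 0.40 ± 0.08 in Esh9-1. The other CDC25C probe sets went against that rise. Set 217010_s_at was called higher in ERC4 (0.33) and lower in Esh9-1 (-0.48). Set 216914_at was not called in ERC4 (-0.21) and called lower in Esh9-1 (-0.24). The small CDK-binding proteins CKS1B and CKS2 rose by 0.22 ± 0.07 and 0.81 ± 0.09 in ERC4, and neither was called in Esh9-1. CCNA2, the cyclin of S phase and early mitosis, was called in neither comparison (0.09 ± 0.07 in ERC4 and 0.15 ± 0.07 in Esh9-1).

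Of the 5 mitotic kinases, 4 were called higher and 1 was not called in ERC4, with a median of 0.47. In Esh9-1, 4 were called higher and 1 lower, with a median of 0.41. AURKA, which matures centrosomes, rose by 1.06 ± 0.08 in ERC4 and 0.71 ± 0.08 in Esh9-1. AURKB, the kinase of the chromosomal passenger complex that corrects faulty attachments, read 9.53, 9.68 and 9.61 in ERC4 cells, against 9.15, 9.14 and 9.12 in parental cells. In Esh9-1 cells it read 9.76, 9.77 and 9.74, against 10.63, 10.54 and 10.62 in HCC827NT cells. It therefore rose by 0.47 ± 0.06 in ERC4 (adjusted p = 1.6e-05) and fell by 0.84 ± 0.06 in Esh9-1 (adjusted p = 3.1e-08), without overlap in either set. PLK1, which acts in mitotic entry and spindle assembly, read 8.12, 8.20 and 8.31 in ERC4 cells, against 8.20, 7.88 and 7.74 in parental cells. It read 9.46, 9.44 and 9.41 in Esh9-1 cells, against 9.08, 8.98 and 9.01 in HCC827NT cells. The rise of 0.41 ± 0.10 in Esh9-1 separated the groups (adjusted p = 0.0024), whereas the rise of 0.27 ± 0.10 in ERC4 (adjusted p = 0.029) overlapped, since parental replicate 1 lay at the level of ERC4 replicate 2. Without parental replicate 3 the PLK1 value in ERC4 was 0.17 (adjusted p = 0.14). NEK2, a kinase that separates centrosomes, read 8.18, 8.13 and 8.18 in ERC4 cells, against 6.47, 7.12 and 7.02 in parental cells. NEK2 in Esh9-1 cells read 10.37, 10.28 and 10.33, against 9.50, 9.28 and 9.42 in HCC827NT cells. On the brightest probe sets NEK2 was the most raised of the 5 in both, by 1.29 ± 0.13 in ERC4 and 0.93 ± 0.13 in Esh9-1. Its other probe set was called higher in ERC4 (1.12) and not called in Esh9-1 (-0.17). PLK4, which starts centriole duplication, was not called in ERC4 (0.11 ± 0.07) and rose by 0.32 ± 0.07 in Esh9-1.

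The spindle assembly checkpoint had 4 of 5 members called higher in ERC4, with a median of 0.57, and 3 higher and 1 lower in Esh9-1, with a median of 0.27. TTK, the kinase that starts checkpoint signalling at unattached kinetochores, read 7.46, 7.45 and 7.47 in ERC4 cells, against 5.72, 6.40 and 6.33 in parental cells. TTK in Esh9-1 cells read 9.22, 9.24 and 9.35, against 9.22, 8.94 and 9.06 in HCC827NT cells. Its rise of 1.31 ± 0.14 in ERC4 (limma adjusted p = 1.6e-06) left all ERC4 arrays above all parental ones, and the value of 0.20 ± 0.14 in Esh9-1 was not called (adjusted p = 0.26). The kinase gene BUB1 rose by 0.57 ± 0.12 in ERC4 and 0.70 ± 0.12 in Esh9-1, and BUB1B, which encodes the checkpoint protein BubR1, by 0.77 ± 0.10 and 0.27 ± 0.10. BUB3, their WD-repeat partner, rose by 0.54 ± 0.07 in ERC4 and fell by 0.29 ± 0.07 in Esh9-1. MAD2L1, which encodes the inhibitor of CDC20, was not called in ERC4 at 0.20 ± 0.12 and rose by 0.77 ± 0.12 in Esh9-1.

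Centromere and kinetochore genes were the least uniform role in Esh9-1, spanning changes of -0.52 to 1.58, with 3 of 6 called higher and 2 lower. In ERC4, 3 were called higher and 3 were not called, with a median of 0.24. CENPE, a kinesin that moves chromosomes to the spindle equator, read 6.76, 6.43 and 6.58 in ERC4 cells, against 6.31, 6.40 and 6.34 in parental cells. CENPE in Esh9-1 cells read 8.42, 8.41 and 8.35, against 7.29, 6.49 and 6.66 in HCC827NT cells. The rise of 1.58 ± 0.15 in Esh9-1 (adjusted p = 5.8e-07) exceeded the spread of the HCC827NT arrays, of which replicate 1 was the highest, and in ERC4 the value of 0.24 ± 0.15 was not called (adjusted p = 0.19). The HCC827NT levels of CENPE lay below those arrays' medians over all genes (7.63 to 7.65), so the size of its rise in Esh9-1 rests on dim signal. CENPF, a large protein of the outer kinetochore, read 9.69, 9.67 and 9.50 in ERC4 cells, against 8.82, 8.93 and 8.52 in parental cells. It read 10.81, 10.75 and 10.83 in Esh9-1 cells, against 9.91, 9.43 and 9.47 in HCC827NT cells. CENPF thus rose in both, by 0.86 ± 0.12 in ERC4 (adjusted p = 4e-05) and 1.19 ± 0.12 in Esh9-1 (adjusted p = 1.4e-06).

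CENPA, the histone H3 variant that marks centromeres, read 7.88, 7.71 and 7.99 in ERC4 cells, against 8.04, 7.87 and 7.88 in parental cells. CENPA in Esh9-1 cells read 8.35, 8.42 and 8.31, against 8.96, 8.70 and 8.83 in HCC827NT cells. The groups overlapped in the first set (-0.07 ± 0.09, not called), and CENPA fell by 0.47 ± 0.09 in Esh9-1 (adjusted p = 0.00037). ZWINT, which helps bring the checkpoint's dynein recruiter to kinetochores, read 9.55, 9.68 and 9.70 in ERC4 cells, against 9.35, 9.40 and 9.44 in parental cells. It read 11.17, 11.14 and 11.15 in Esh9-1 cells, against 11.58, 11.74 and 11.71 in HCC827NT cells. ZWINT rose by 0.25 ± 0.07 in ERC4 (adjusted p = 0.0061) and fell by 0.52 ± 0.07 in Esh9-1 (adjusted p = 1.2e-05). NDC80, the microtubule-binding subunit of the complex of that name, rose by 0.93 ± 0.10 in ERC4 and 0.33 ± 0.10 in Esh9-1. BIRC5, which encodes survivin of the chromosomal passenger complex, was called in neither comparison on its brightest probe set, at -0.00 ± 0.07 in ERC4 and -0.08 ± 0.07 in Esh9-1. Its probe set 210334_x_at was called lower in Esh9-1 (-0.73 ± 0.08) and not called in ERC4, and 202094_at was called in neither.

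Kinesin motors, with the midzone protein PRC1, were raised in ERC4 as a whole role: 8 of 8 were called higher, with a median of 1.00 and a range of 0.40 to 1.54, and the arrays of the groups overlapped for none of the 8. Of all genes, 28.9% were called higher there, and 60.5% did not overlap in either direction. Among the 3988 brightest genes these shares were 52.8% and 74.4%. All 8 were also called after quantile normalization. In Esh9-1, 4 of 8 were called higher and 4 were not called, with a median of 0.24. KIF23, a motor of the centralspindlin complex needed for cytokinesis, read 6.16, 6.23 and 6.04 in ERC4 cells, against 4.70, 4.61 and 4.49 in parental cells. It read 8.81, 9.12 and 8.82 in Esh9-1 cells, against 8.72, 8.59 and 8.74 in HCC827NT cells. The rise of 1.54 ± 0.09 in ERC4 (adjusted p = 6.7e-09) was the largest among the members, and 0.23 ± 0.09 in Esh9-1 missed the threshold (adjusted p = 0.051). The parental levels of KIF23 lay below the parental arrays' own medians over all genes (6.10 to 6.12), so the size of this rise rests on dim signal. The same holds for KIF11, KIF14 and KIF15, with parental means of 5.11, 5.76 and 5.08, and for NDC80 with 5.78.

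KIF20A, a motor that brings passenger proteins to the central spindle, read 9.44, 9.40 and 9.33 in ERC4 cells, against 7.79, 8.16 and 8.09 in parental cells. It read 9.80, 9.77 and 9.72 in Esh9-1 cells, against 9.14, 9.14 and 9.24 in HCC827NT cells. It rose in both, by 1.38 ± 0.09 in ERC4 (adjusted p = 1e-08) and 0.59 ± 0.09 in Esh9-1 (adjusted p = 3.8e-05). KIF11, the motor that pushes spindle poles apart, read 6.34, 6.53 and 6.38 in ERC4 cells, against 5.03, 5.42 and 4.90 in parental cells. KIF11 in Esh9-1 cells read 8.42, 8.63 and 8.62, against 7.94, 7.83 and 8.09 in HCC827NT cells. KIF11 rose by 1.30 ± 0.12 in ERC4 (adjusted p = 4.1e-07) and 0.61 ± 0.12 in Esh9-1 (adjusted p = 0.00052). KIF14, a motor of late cytokinesis, read 6.67, 6.38 and 6.05 in ERC4 cells, against 5.52, 6.04 and 5.73 in parental cells. It read 8.85, 8.74 and 8.67 in Esh9-1 cells, against 7.84, 7.66 and 7.66 in HCC827NT cells. ERC4 replicate 3 and parental replicate 2 nearly met for KIF14, which rose by 0.60 ± 0.14 in ERC4 (adjusted p = 0.0025) and by 1.03 ± 0.14 in Esh9-1 (adjusted p = 2.6e-05). KIF4A, a motor of chromosome arms and midzone, rose by 1.10 ± 0.07 in ERC4 with 0.01 ± 0.07 in Esh9-1, and KIF15, which acts beside KIF11 at the spindle, rose by 0.91 ± 0.10 with 0.04 ± 0.10 in Esh9-1. KIF2C, which takes down microtubules at faulty attachments, rose by 0.40 ± 0.07 in ERC4, and PRC1, which bundles midzone microtubules, by 0.53 ± 0.07. In Esh9-1 KIF2C was not called at 0.08 ± 0.07 and PRC1 rose by 0.24 ± 0.07.

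Of the 5 spindle assembly factors, 3 were called higher and 1 lower in ERC4, and the same counts held in Esh9-1. HMMR, a microtubule-associated protein of spindle poles, read 8.71, 8.62 and 8.37 in ERC4 cells, against 7.01, 8.04 and 7.51 in parental cells. In Esh9-1 cells it read 10.59, 10.48 and 10.50, against 9.85, 9.60 and 9.60 in HCC827NT cells. HMMR rose by 1.05 ± 0.18 in ERC4 and 0.84 ± 0.18 in Esh9-1, with the widest SE of the 48, and its parental arrays were the most spread of the 4 groups. TACC3 read 8.03, 8.03 and 8.19 in ERC4 cells, against 8.76, 8.73 and 8.79 in parental cells. It read 10.27, 10.29 and 10.27 in Esh9-1 cells, against 10.69, 10.74 and 10.74 in HCC827NT cells. TACC3 was the 1 member called lower in both comparisons, at -0.68 ± 0.06 in ERC4 (adjusted p = 5.9e-07) and -0.45 ± 0.06 in Esh9-1 (adjusted p = 3.2e-05). DLGAP5 and NUSAP1, which stabilise spindle microtubules, rose by 1.06 ± 0.11 and 0.53 ± 0.08 in ERC4 and by 0.35 ± 0.11 and 0.31 ± 0.08 in Esh9-1. TPX2, the activator of Aurora A at the spindle, was called in neither, with 0.15 ± 0.06 in ERC4 and -0.16 ± 0.06 in Esh9-1 (adjusted p = 0.055 and 0.054).

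The 4 genes of anaphase and degradation had 2 called higher and 2 not called in ERC4, and 2 higher and 2 lower in Esh9-1. CDC20, which activates the anaphase-promoting complex, rose by 0.56 ± 0.06 in ERC4 and 0.28 ± 0.06 in Esh9-1. UBE2C, a ubiquitin-conjugating enzyme that works with that complex, read 10.37, 10.45 and 10.54 in ERC4 cells, against 10.42, 10.37 and 10.47 in parental cells. In Esh9-1 cells it read 11.63, 11.59 and 11.55, against 11.997, 11.92 and 12.05 in HCC827NT cells. UBE2C overlapped in the first set (0.03 ± 0.07, not called) and fell by 0.40 ± 0.07 in Esh9-1 (adjusted p = 0.00016). ESPL1, the separase that cuts cohesin, rose by 0.79 ± 0.07 in ERC4 and fell by 0.29 ± 0.07 in Esh9-1. PTTG1, its inhibitor securin, was not called in ERC4 at 0.04 ± 0.08 and rose by 0.79 ± 0.08 in Esh9-1.

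Chromosome structure genes had 4 of 6 called higher in ERC4, with a median of 0.51, and 1 higher and 2 lower in Esh9-1, with a median of -0.10. SMC4, a core subunit of condensin, read 9.97, 9.99 and 9.96 in ERC4 cells, against 8.58, 8.77 and 8.66 in parental cells. In Esh9-1 cells it read 10.54, 10.65 and 10.71, against 10.89, 10.50 and 10.51 in HCC827NT cells. SMC4 rose by 1.30 ± 0.10 in ERC4 (adjusted p = 5.7e-08), and its arrays overlapped in the second set (0.01 ± 0.10). SMC2, its partner subunit, rose by 1.23 ± 0.11 in ERC4 and was not called in Esh9-1, at -0.03 ± 0.11. These values are from the brightest probe sets, and in Esh9-1 another set was called lower for SMC4 and higher for SMC2. TOP2A, the topoisomerase that untangles sister chromatids, read 10.57, 10.67 and 10.65 in ERC4 cells, against 9.87, 9.998 and 9.92 in parental cells. It read 11.37, 11.35 and 11.27 in Esh9-1 cells, against 11.57, 11.67 and 11.64 in HCC827NT cells. TOP2A rose by 0.70 ± 0.06 in ERC4 (adjusted p = 5.2e-07) and fell by 0.30 ± 0.06 in Esh9-1 (adjusted p = 0.0014). MKI67, the proliferation marker that coats mitotic chromosomes, read 8.49, 8.42 and 8.47 in ERC4 cells, against 8.29, 8.22 and 8.38 in parental cells. In Esh9-1 cells it read 9.49, 9.49 and 9.51, against 9.99, 9.80 and 9.71 in HCC827NT cells. The MKI67 difference of 0.17 ± 0.08 in ERC4 was not called (adjusted p = 0.073) although the arrays did not overlap, and MKI67 fell by 0.34 ± 0.08 in Esh9-1 (adjusted p = 0.0014). The condensin I subunit NCAPG rose by 0.33 ± 0.10 in ERC4 and 0.36 ± 0.10 in Esh9-1, and NCAPH, its partner, was called in neither (-0.18 ± 0.07 and -0.17 ± 0.07).

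**Figure D2:**
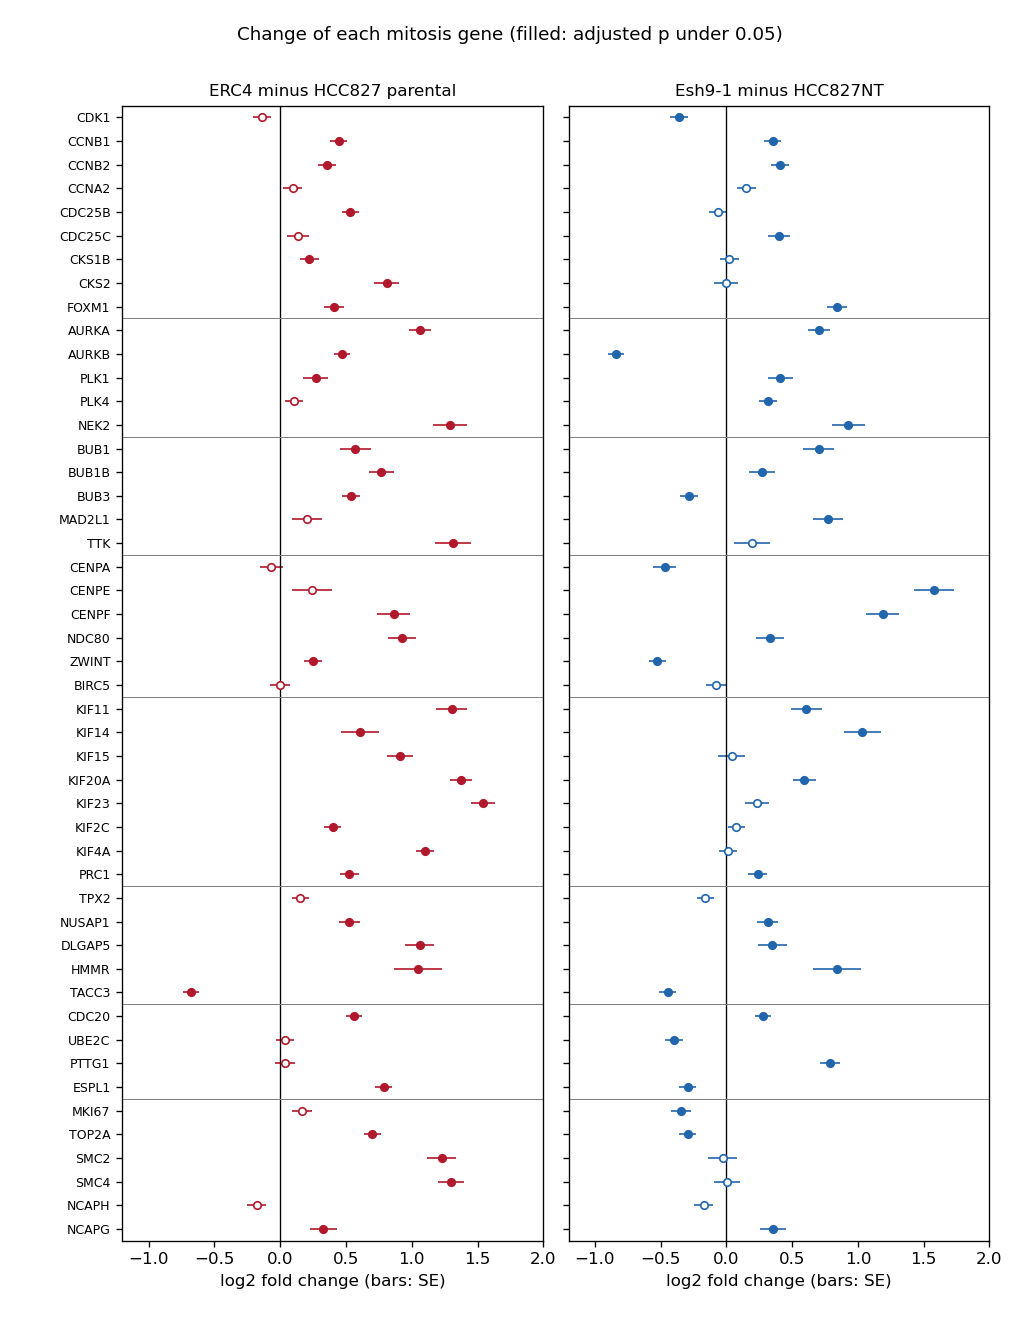
Log2 fold change of each of the 48 mitosis genes with its SE (horizontal bars), in ERC4 minus HCC827 parental (left panel) and Esh9-1 minus HCC827NT (right panel), with filled points for adjusted p under 0.05. All 8 kinesin and midzone genes are filled and above 0 in the left panel, and 4 of them are filled in the right panel.

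The 2 comparisons share no arrays, so calls can be set beside each other. Of the 48, 19 were called higher in both, where 13.4% of all genes were. These 19 include CCNB1, CCNB2, FOXM1, AURKA, PLK1, NEK2, BUB1, CENPF, KIF11, KIF14, KIF20A, HMMR and CDC20. Another 5 were higher in ERC4 and lower in Esh9-1 (AURKB, BUB3, ZWINT, ESPL1 and TOP2A), where 6.4% of all genes were. Calls higher in ERC4 alone numbered 10 (background 9.01%), higher in Esh9-1 alone 5 (CDC25C, PLK4, MAD2L1, CENPE and PTTG1; background 8.56%) and lower in Esh9-1 alone 4 (CDK1, CENPA, UBE2C and MKI67; background 9.4%). TACC3 was lower in both (background 8.8%), and CCNA2, BIRC5, TPX2 and NCAPH were called in neither (background 24.3%). Across the 48 members the changes of the 2 comparisons had a Pearson r of 0.295, a description across genes, which are not independent replicates.

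The difference itself was tested as the ERC4 effect minus the Esh9-1 effect in the same limma fit. It was called for 31 members, with 26 higher in ERC4 and 5 lower, which is 64.6% of the 48, where 49.6% of all genes were called, 25.5% higher and 24.1% lower. Among the 3988 brightest genes 64.6% were called, 46.2% higher and 18.4% lower, and of the 42 members there 26 were called (61.9%), 22 higher (52.4%) and 4 lower. The share of members with different effects was thus near that of bright genes in general. AURKB (1.31 ± 0.09, adjusted p = 2.2e-08), KIF23 (1.31 ± 0.13), SMC4 (1.29 ± 0.14) and SMC2 (1.26 ± 0.16) differed most toward ERC4. CENPE (-1.34 ± 0.21, adjusted p = 0.00013), PTTG1 (-0.75 ± 0.11), MAD2L1 (-0.57 ± 0.16), FOXM1 (-0.43 ± 0.11) and TACC3 (-0.23 ± 0.09) were the 5 that differed the other way. For CCNB1 and CCNB2 the differences were 0.09 ± 0.09 and -0.06 ± 0.10, neither called. With quantile normalization the split was 19 higher and 10 lower, where 2678 of all 11963 genes were called higher and 2933 lower. These effects come from 2 sets of arrays with unlike medians, and whether the sets were normalized apart is not stated. The spread of log2 values (SD over probe sets) was 1.83 to 1.96 in the ERC4 and parental arrays. It was 2.24 to 2.27 in the Esh9-1 and HCC827NT arrays.

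**Figure D3:**
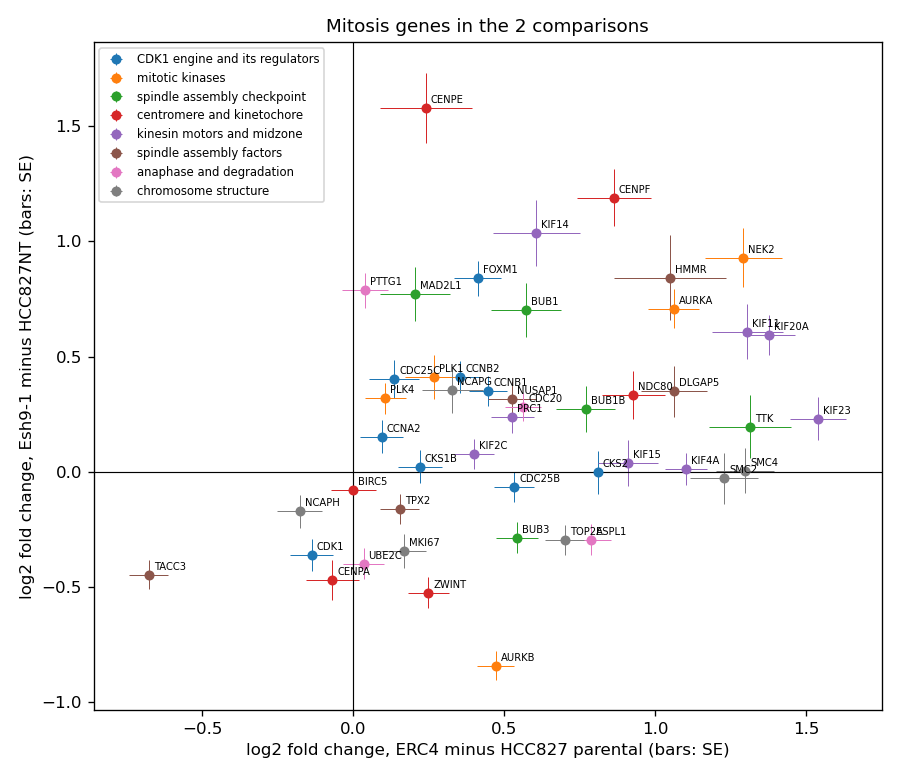
Log2 fold change of each mitosis gene in ERC4 minus HCC827 parental (horizontal axis) against Esh9-1 minus HCC827NT (vertical axis), with SE bars and colours by role. Most points lie right of 0, CENPE stands highest (1.58), AURKB lowest (-0.84), and TACC3 (-0.68 and -0.45) is the 1 member called lower on both axes.

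Several probe sets were available for 19 members and 1 for the other 29, which gave 81 probe sets in all. The p-values in this paragraph are adjusted over all probe sets with 1 symbol. In ERC4, every probe set was called higher for 8 of the 19 members, and 1 member, BUB1, had calls in both directions. In Esh9-1, every probe set was called higher for 4 and lower for 1, and 5 had opposite calls (CDK1, CDC25C, PLK4, BUB1 and MKI67). For CDK1, probe set 203213_at gave 0.27 ± 0.09 in ERC4 and 0.53 ± 0.09 in Esh9-1 (adjusted p = 0.019 and 0.00013), against -0.14 and -0.36 for the brightest set 210559_s_at. The fall of CDK1 in Esh9-1 was therefore seen in the brightest set and in 203214_x_at (-0.44) and reversed in 203213_at. For MKI67 the brightest set 212021_s_at was not called in ERC4, while 212022_s_at (0.43), 212020_s_at (0.81) and 212023_s_at (0.43) were called higher. In Esh9-1 the MKI67 sets gave -0.34, 0.22, -0.21 and 0.10, of which the first 3 were called. BUB1 in Esh9-1 read 0.70 ± 0.12 on its brightest set 209642_at and -0.78 ± 0.11 on 215509_s_at. CCNA2, not called on its brightest set, rose on 213226_at by 0.34 ± 0.11 in ERC4 and 1.03 ± 0.11 in Esh9-1. SMC4 and SMC2 were not called in Esh9-1 on their brightest sets. There SMC4 was lower on 201663_s_at (-0.54 ± 0.11) and SMC2 higher on 213253_at (0.60 ± 0.12). TOP2A had both of its probe sets higher in ERC4 (0.70 and 0.64) and lower in Esh9-1 (-0.30 and -0.41). One further CENPA probe set carries more than 1 symbol and was not used.

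**Figure D4:**
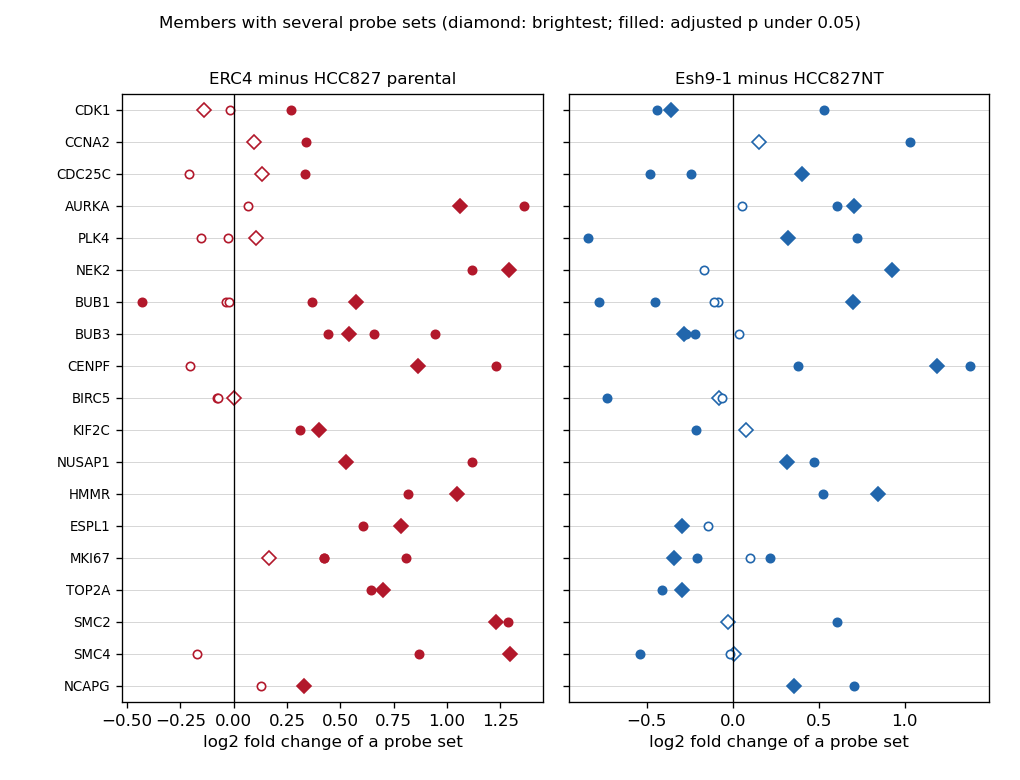
Log2 fold change of every probe set of the 19 mitosis genes with more than 1 (rows), in ERC4 minus HCC827 parental (left panel) and Esh9-1 minus HCC827NT (right panel); diamonds mark the brightest probe set and filled points an adjusted p under 0.05. BUB1 has filled points on both sides of 0 in both panels, and TOP2A has both points right of 0 on the left and left of 0 on the right.

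Genes around the 48 were read from 7 further lists. Of all genes, 28.9% were called higher and 28.8% lower in ERC4, and 25.3% higher and 24.6% lower in Esh9-1. Of the 3988 brightest genes, 52.8% were called higher and 16.8% lower in ERC4, and 34.8% higher and 32.7% lower in Esh9-1. Of 28 other kinetochore and centromere genes, 16 were called higher and 3 lower in ERC4 (median 0.25), with OIP5 at 1.08, and 9 higher and 5 lower in Esh9-1 (median 0.15), with SPDL1 at 1.16 and KNTC1 at -0.94. Of 23 other spindle and cytokinesis genes, 16 were higher and 2 lower in ERC4 (median 0.32), and 9 higher and 4 lower in Esh9-1 (median 0.18). ASPM, a spindle pole protein, rose in both, by 1.62 ± 0.12 and 1.24 ± 0.12, and CKAP2 by 1.42 and 1.14, while the motor KIFC1 fell by 0.50 and 0.47. Of 13 other condensin and cohesin genes, 10 were higher and 3 not called in ERC4 (median 0.60), with the cohesin core gene SMC1A at 1.84, and 3 higher and 1 lower in Esh9-1 (median 0.11). APC/C subunits and inhibitors had 6 of 11 higher and 1 lower in ERC4 (median 0.27), and 7 higher and 2 lower in Esh9-1 (median 0.43). Among 17 cell cycle transcription regulators, 8 were higher and 3 lower in ERC4 (median 0.10) and 5 higher and 3 lower in Esh9-1 (median -0.06). RB1, the pocket protein that restrains E2F, rose in both, by 1.16 ± 0.10 and 0.98 ± 0.10. Among 12 brakes on CDKs, 6 were higher and 4 lower in ERC4, and 5 higher and 4 lower in Esh9-1 (medians 0.05 and 0.10). CDKN1B, which encodes the CDK inhibitor p27, rose by 1.03 ± 0.15 in both, and SFN, a p53 target that holds cells before mitosis, fell in both, with changes of -0.94 ± 0.08 and -2.16 ± 0.08. In the order of this paragraph, the shares called higher in ERC4 were 57.1%, 69.6%, 76.9%, 54.5%, 47.1% and 50%. In Esh9-1 they were 32.1%, 39.1%, 23.1%, 63.6%, 29.4% and 41.7%. For calls higher in ERC4, the kinetochore, APC/C, transcription regulator and brake lists were near the brightest genes. In Esh9-1 the kinetochore, spindle and transcription regulator lists were. In the same order, 13, 18, 9, 8, 6 and 8 of the listed genes were among the 3988 brightest, so for some lists that comparison covers mostly dimmer genes.

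DNA replication genes act in S phase, before mitosis. Of 30, 26 of them among the 3988 brightest, 18 were called higher (60%) and 4 lower (13.3%) in ERC4, with a median of 0.25, where 52.8% of the 3988 brightest genes were called higher and 16.8% lower. In Esh9-1, 4 were called higher (13.3%) and 21 lower (70%), with a median of -0.36, where 34.8% of the brightest genes were called higher and 32.7% lower. CDC6, which loads the replicative helicase, rose by 1.37 ± 0.08 in ERC4 and fell by 1.39 ± 0.08 in Esh9-1. The clamp loader gene RFC5 and the helicase gene MCM7 fell by 1.89 ± 0.09 and 1.46 ± 0.06 in Esh9-1. POLA1, the catalytic subunit of DNA polymerase alpha, went against that majority and rose by 3.17 ± 0.12 in Esh9-1. In ERC4 the ribonucleotide reductase subunit gene RRM2 and the GINS complex gene GINS4 fell by 0.64 ± 0.07 and 0.64 ± 0.18. The difference of effects was called for 25 of the 30 (83.3%), with 23 higher in ERC4, where 64.6% of the brightest genes were called.

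The promoter windows of the members were rich in the CHR letters. TTTGAA was in 32 of 55 windows of the 41 members (58.2%), where 15.2% of all 35116 windows held it, and the TTTAAA form was in 16 (29.1%, against 12.2% of all windows). CCAAT was in 38 (69.1%, against 34.6%), and GCGGGAA in 5 (9.09%, against 6.55%). Among windows of genes on the array, the shares were 11.8% for TTTGAA, 9.62% for TTTAAA, 35.1% for CCAAT and 8.77% for GCGGGAA. The members' share with GCGGGAA was thus near that of genes on the array. A CHR of either form starting within 70 bases before the start was in 28 windows (50.9%, against 6.2%), and a CHR together with a CCAAT box in 30 (54.5%, against 9.27%). Both strands were searched, and adjacent matches such as the paired TTTAAA of CENPE were counted apart, as were overlapping ones. In the sequences shown, CCNB2 had TTTGAA at -29 and CCAAT at -54 and -87, CCNB1 had TTTAAA at -30 and CCAAT at -55 and -87, and KIF11 had the reverse complement of TTTGAA at -28. TACC3 had no match in its window, and AURKB had only a CCAAT box at -153 in its first window, upstream of the bases shown. By first window, the 34 members with a CHR had a median change of 0.54 in ERC4 and 0.28 in Esh9-1, and the 7 without one had 0.47 and 0.15. A match describes letters only.

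**Figure D5:**
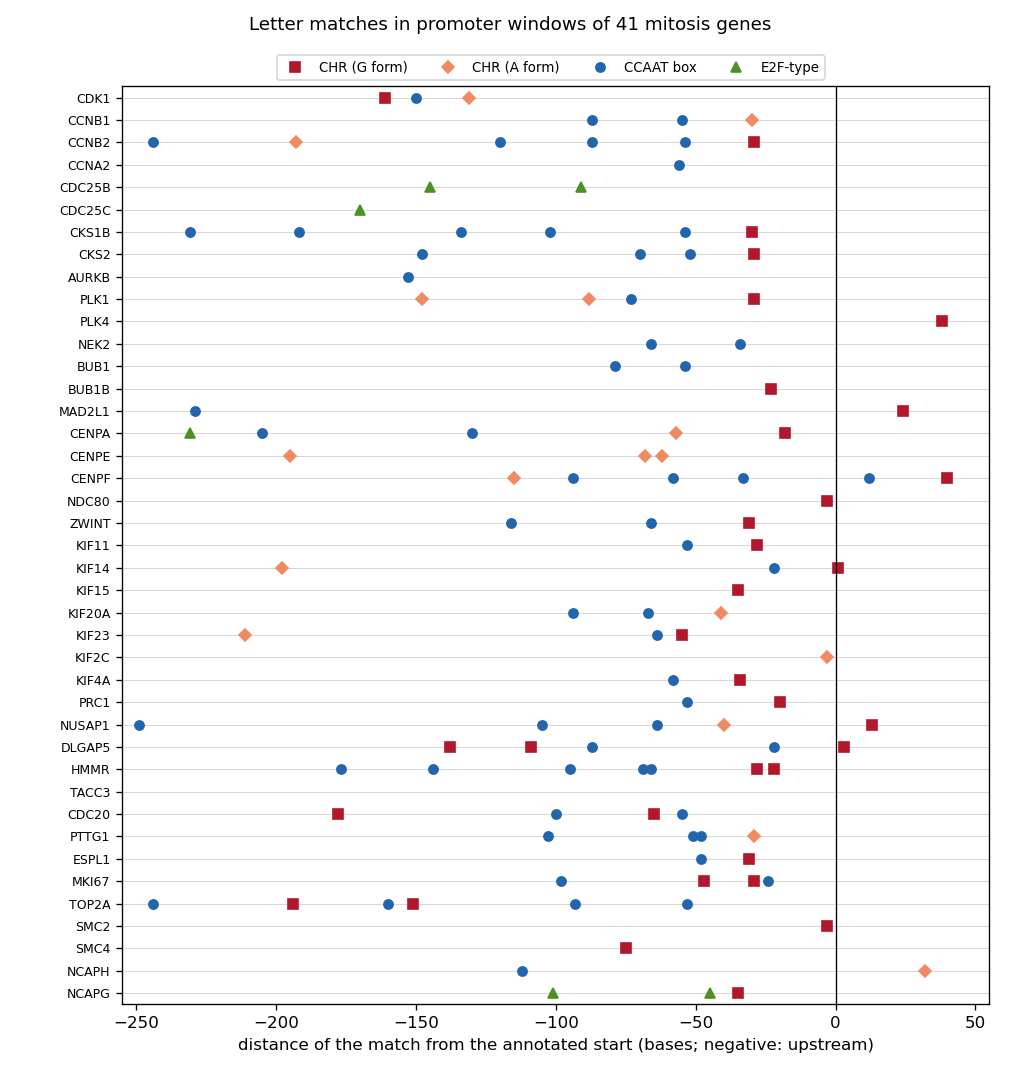
Position of each letter match (symbols by motif) in the first promoter window of 41 mitosis genes (rows), in bases from the annotated start (0, vertical line). CHR matches gather between -70 and 0 in many rows, CCNB1 (-30), CCNB2 (-29) and PLK1 (-29) among them, with CCAAT boxes mostly upstream of them, and the TACC3 row is empty.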

How the data were processed

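Transcript levels were measured in total RNA of HCC827-derived cells on 12 GeneChip arrays with biotin labelling, 3 arrays per group. The authors deposited linear intensity values of 22277 probe sets, which RMA produced according to the submitters' processing notes. Neither the RMA version nor the batches of arrays it was run on are given in the sources used. Intensities were taken to log2(value + 1), so changes of dim genes come out too small. The platform annotation gives 1 symbol to 19070 probe sets, several to 1043 and none to 2164, and the first kind yielded 11963 genes, each read from its brightest probe set. A single limma model (version 3.58.1, R 4.3.3, lmFit then eBayes) held the 12 arrays with 8 residual degrees of freedom, and its tests were two-sided, with Benjamini-Hochberg adjustment over all genes and a threshold of 0.05. The number of arrays limits the precision. Replicate arrays correlated at 0.9923 to 0.998 across probe sets, and no arrays were identical.

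The members, their roles, the further lists and the tests were chosen with earlier results of these data known. Any member may be named. Values per array are given for EGFR, MKI67, TOP2A, CCNB1, CDK1, PLK1, AURKB and FOXM1 and the 5 highest and 5 lowest called members of each comparison, and of each further list at most 3 called genes per direction and comparison. Replicate numbers were checked as pairs: deviations of same-numbered arrays correlated at 0.04, 0.07 and 0.00 between ERC4 and parental and at -0.12, -0.02 and -0.11 between Esh9-1 and HCC827NT. Same-numbered arrays thus showed no shared deviation, which cannot tell whether they were cultured or handled together. The procedure was tested on simulated data. Alternatives covered the replicate block, fits of 6 arrays, eBayes settings, quantile normalization by set, centring on the median, leaving out dim genes or each array in turn, averaging probe sets, no pseudocount and a threshold of 0.01; calls demanding every probe set were added after seeing the data. Promoter windows are RefSeq's (GRCh38.p14). Figures were drawn with matplotlib 3.10.9.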

Additional observations from a re-analysis of the deposited data

Results flagged for a closer look

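For 31 of the 48 mitosis genes the ERC4 effect minus the Esh9-1 effect passed the limma test of the difference itself, where 49.6% of all genes and 64.6% of the 3988 brightest genes did. The members' share was 64.6%, and 61.9% for the 42 of them among the brightest genes. The effects were measured in 2 sets of arrays with unlike medians, and whether the sets were normalized apart is not stated. The part of the unlike sets in the differences was not tested. Values are log2 differences of the 2 changes.

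In the CDK1 engine the difference was 0.60 for the phosphatase CDC25B, 0.81 for CKS2 and -0.43 for FOXM1. Among the kinases it was 0.35 for AURKA and 1.31 for AURKB. Among checkpoint genes it was 0.50 for BUB1B, 0.83 for BUB3, 1.12 for TTK and -0.57 for MAD2L1. At the centromere it was 0.40 for CENPA, 0.60 for NDC80, 0.77 for ZWINT and -1.34 for CENPE.

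All 7 differences called among the kinesins and the midzone were positive, at 0.70 for KIF11, 0.87 for KIF15, 0.78 for KIF20A, 1.31 for KIF23, 0.32 for KIF2C, 1.09 for KIF4A and 0.29 for PRC1. Spindle assembly factors gave 0.31 for TPX2, 0.71 for DLGAP5 and -0.23 for TACC3. All 4 genes of anaphase and degradation differed, by 0.28 for CDC20, 0.43 for UBE2C, 1.08 for ESPL1 and -0.75 for PTTG1. Chromosome structure genes gave 0.51 for MKI67, 1.00 for TOP2A, 1.26 for SMC2 and 1.29 for SMC4.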

How the results depend on the processing

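Over 2014 values of single members under the alternatives, 1931 kept their side of the threshold, 42 passed it newly, 37 lost the call and 4, called in at least 1 of the settings, changed sign. Of the 1931, 37 changed sign with no call in either setting, among them 6 in ERC4 and 14 in Esh9-1 with 1 array left out, and after quantile normalization 3 in Esh9-1 and 7 in ERC4 (CCNA2, PLK4, MAD2L1, TPX2, UBE2C, PTTG1 and MKI67). In ERC4 minus parental the count called lower, 1 (TACC3), became 2 with eBayes trend and robust settings, without dim genes, with the mean of probe sets and without HCC827_parental replicate 2, NCAPH being the second, and 5 after quantile normalization within each set. In Esh9-1 minus HCC827NT the count called lower, 10, became 6 when every probe set of a gene had to be called, an alternative chosen after seeing the data. With the mean of probe sets in Esh9-1, 4 members reversed, to -0.11 for CDC25C, -0.15 for BUB1, 0.29 for SMC2 and -0.18 for SMC4; the probe sets averaged there disagree in direction.

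The filter on dim genes removed KIF15, which has no value there. Leaving out each array gave 32 to 36 members higher and 1 to 2 lower in ERC4, 21 to 26 higher and 10 to 11 lower in Esh9-1, and 28 to 32 different effects. In ERC4 the call of PLK1 was lost without ERC4 replicate 2 or 3 or parental replicate 2 or 3 (values 0.17 to 0.27), that of CKS1B without ERC4 replicate 1 (0.19) or parental replicate 1 (0.16), and that of NCAPG without ERC4 replicate 2 (0.24) or parental replicate 1 (0.24). In Esh9-1 the call of BUB1B was lost without Esh9-1 replicate 1 or 2 or HCC827NT replicate 2 or 3 (0.24 to 0.28), that of NDC80 without Esh9-1 replicate 1 (0.30) or HCC827NT replicate 2 (0.31), that of DLGAP5 without HCC827NT replicate 2 (0.33) or 3 (0.32), and that of PRC1 without HCC827NT replicate 1 (0.21).

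With the replicate number as a block, ERC4 had 34 members higher and 1 lower, Esh9-1 had 24 and 10, and 30 effects differed. The causes of these changes were otherwise not tested, and 3 arrays a group limit what small changes can show.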
